A study of Mus musculus with 6 samples.

Results

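Amyloid precursor protein, tau, the synucleins and the prion protein are neuronal proteins that form deposits in neurodegenerative disease, and their transcripts were followed here in mouse hippocampus through 8 genes chosen by name: App, Aplp1, Aplp2, Bace1, Mapt, Sncb, Sncg and Prnp. Each matched 1 of the 23282 rows of the count files, and 7 of the 8 were among the 12831 genes that passed the low-count filter, Sncg being the exception. The hippocampi came from C57BL/6 mice aged 16 weeks and were labelled by genotype as wild type (WT), 3 libraries, or PHF2 t/g, 3 libraries. PHF2 removes methyl groups from a lysine of histone H3, and t/g is taken here to mean a Phf2 transgene; its promoter, construct and number of founder lines are not stated in the labels. The design asks which hippocampal transcripts differ between the genotypes. Separate samples are named, but not separate animals, so a p-value reflects only the spread among these 6 libraries, which may be technical.

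App encodes a membrane protein that is cut by the beta-secretase BACE1 and then by gamma-secretase to release the amyloid beta peptide. APLP1 and APLP2 are its relatives and lack the amyloid beta sequence. Mapt encodes tau, which binds microtubules in axons. Sncb and Sncg encode beta- and gamma-synuclein, small proteins of nerve terminals. Prnp encodes the cellular prion protein, which is anchored to the outer face of the plasma membrane. QuantSeq libraries take 1 tag per transcript from its 3′ end, so levels of different genes can be set side by side without a correction for length, and splice forms that differ upstream, such as those of tau and App, are summed. GENCODE M21 holds several separate 3′ ends for Mapt (5), App (3), Bace1 (3), Aplp2 (2) and Sncb (2). The annotation used for counting is not stated, so tags at some ends may be missing. Comparisons of level between genes carry this limit.

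In PHF2 t/g hippocampus Sncb was 23.0% lower than in WT and was the only one of the 7 tested members past the test (2.27% of all tested genes passed), at 364 ± 14.8 CPM against 473 ± 37.9 CPM (mean ± SD, n = 3 libraries per group). App, the most abundant member, was at 2518 ± 103 CPM against 2721 ± 601 CPM and did not pass, with 1 WT library far below the other two. Mapt and Prnp were at 0.912 and 0.906 of WT without passing, and Aplp1, Aplp2 and Bace1 were within 2.09% of WT. Sncg was close to the limit of detection in every library. CPM is the count per 1000000 counts of the filtered genes in a library, with that total scaled by TMM.

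The 8 genes lie on 7 chromosomes (RefSeq annotation of GRCm38.p6). App spans 84952666 to 85175255 of chromosome 16, Aplp1 30434980 to 30445582 of chromosome 7 and Mapt 104229409 to 104332090 of chromosome 11. Aplp2 and Bace1 are both on chromosome 9, at 31149557 to 31211848 and 45838545 to 45862484. Sncb spans 54758860 to 54766622 of chromosome 13, Sncg 34370274 to 34374669 of chromosome 14 and Prnp 131909928 to 131938436 of chromosome 2. In GENCODE M21 the outermost 3′ end of the Bace1 gene lies inside Rnf214, a gene on the opposite strand, and no source used here says if counting was by strand. Rnf214 itself was read at 66.9 ± 4.42 CPM in PHF2 t/g against 66.4 ± 3.40 CPM. A readthrough gene, Prn, overlaps Prnp, its 3′ end included, on the same strand and had 0 counts in every library. No gene overlaps Sncb, Sncg, Aplp1 or Aplp2 in that annotation.

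Promoter sequences (250 bases before to 50 after the start, from RefSeq, GRCm38.p6) were matched for 6 of the 8 members. Shown are those of Sncb, the member that passed the test, of Sncg, its relative that was hardly read, and of App, the most abundant member; capitals mark each CG dinucleotide, the site of most DNA methylation in mammals. They lie at chr13:54766546-54766845, chr14:34374620-34374919 and chr16:85173658-85173957, all on the minus strand; the window of App is set at a start inside the span given above.
Sncb: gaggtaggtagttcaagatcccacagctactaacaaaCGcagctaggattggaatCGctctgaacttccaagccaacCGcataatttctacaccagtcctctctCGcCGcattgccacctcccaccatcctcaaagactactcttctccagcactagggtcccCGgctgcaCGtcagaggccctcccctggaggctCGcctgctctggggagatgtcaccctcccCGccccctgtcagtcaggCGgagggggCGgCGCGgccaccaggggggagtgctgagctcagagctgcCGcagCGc
Sncg: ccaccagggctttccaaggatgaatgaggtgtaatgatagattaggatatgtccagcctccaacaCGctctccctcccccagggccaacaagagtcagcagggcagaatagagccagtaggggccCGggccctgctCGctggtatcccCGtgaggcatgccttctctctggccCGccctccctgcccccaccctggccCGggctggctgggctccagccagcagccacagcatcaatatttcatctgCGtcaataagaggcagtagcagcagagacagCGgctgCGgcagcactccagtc
App: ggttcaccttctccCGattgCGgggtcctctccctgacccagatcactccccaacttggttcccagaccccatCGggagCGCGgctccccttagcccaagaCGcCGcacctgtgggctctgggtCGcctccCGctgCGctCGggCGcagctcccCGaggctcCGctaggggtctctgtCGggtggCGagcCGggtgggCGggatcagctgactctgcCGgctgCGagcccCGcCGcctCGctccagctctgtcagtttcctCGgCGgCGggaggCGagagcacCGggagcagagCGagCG

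The App promoter holds 30 CG dinucleotides, that of Sncb 15 and that of Sncg 9, against a median of 7 over 32841 promoters of the same length. Aplp2 has 29, Aplp1 26 and Prnp 22. GC content ran from 60.0% in Prnp to 71.0% in App, above the median of 52.7% in all 6. The GC box GGGCGG, searched on both strands, occurred in all 6 and in 35.7% of all promoters. The letters TATAAA, on either strand, occurred in Prnp alone and in 13.6% of all promoters. CCAAT, on either strand, was found in Aplp2, Prnp and Sncb and in 37.4% of all promoters. These are descriptions of the sequence, with no measure of binding or methylation.

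The 6 libraries held 5512171 to 8844718 counts. WT replicate 2 stood apart: its pairs with the other 5 libraries had a chi-square of 9.57 to 18.5 per gene, against 2.95 to 9.14 for the other pairs. This statistic was taken on raw counts and grows with depth, and WT replicate 2 was the deepest library (8844718 counts). Phf2 had 38.7 ± 3.96 CPM in PHF2 t/g against 37.7 ± 1.92 CPM in WT and did not pass (edgeR adjusted p = 0.929). The labels do not state the construct. Whether this level checks the labels is not known, since 3′ tags would miss a transgene that ends in other sequence. Of 8 hippocampal marker genes listed after earlier results were known, 7 had counts in every library, Dsp having 0 in WT replicate 3, and their summed level was 173 to 255 CPM in PHF2 t/g against 189 to 307 CPM in WT. The test was edgeR's quasi-likelihood test, with p-values adjusted by Benjamini-Hochberg over 12831 genes; at 0.05 it called 0.779% of genes higher and 1.49% lower in PHF2 t/g.

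The order of the members' levels was the same in each of the 6 libraries: App, Mapt, Sncb, Prnp, Aplp1, Aplp2, Bace1 and Sncg. App ranked 16th of the 12831 genes by mean CPM, Mapt 172nd, Sncb 315th, Prnp 437th, Aplp1 1011th, Aplp2 1331st and Bace1 3987th. App exceeded Mapt by a factor of 3.02 to 5.03 within a library, and Mapt exceeded Sncb by a factor of 1.32 to 1.75. Between libraries Sncb and Prnp were not separated, since the lowest Sncb level (350 CPM) lay below the highest Prnp level (363 CPM), although Sncb was the higher within every library, by a factor of 1.10 to 1.49. The other neighbours in the order did not overlap across the 6 libraries.

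**Figure D1:**
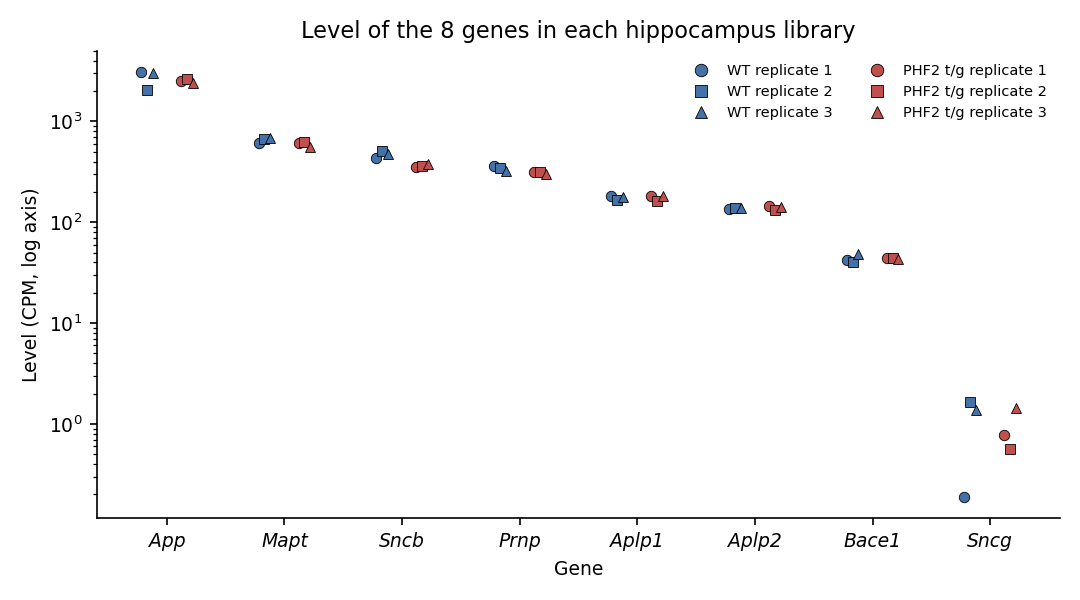
Level of each of the 8 genes in CPM (vertical log axis) in the 3 WT (blue) and 3 PHF2 t/g (red) libraries, each point 1 library and the marker shape its replicate number. App lies at or above 2027 CPM in every library, and Sncg lies at or below 1.64 CPM.

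The first role considered was that of the precursor itself. App had levels of 2503, 2628 and 2424 CPM in PHF2 t/g replicates 1, 2 and 3, and at 3091, 2027 and 3045 CPM in the WT libraries in the same order. The PHF2 t/g libraries thus lay between WT replicate 2, the lowest of the 6, and the other two WT libraries, and the groups overlapped. Its log2 fold change of −0.11 (SE 0.16, 95% interval −0.48 to 0.25) did not pass (edgeR adjusted p = 0.799). The WT libraries had a coefficient of variation of 22.1% for App, against 4.09% in PHF2 t/g, while the smallest App count gives a counting error of 0.815%. Without WT replicate 2 the log2 fold change was −0.28 and App passed the test (edgeR adjusted p = 0.0244), with WT at 3068 ± 32.9 CPM (n = 2) and PHF2 t/g 17.9% below it. With WT replicate 2 and PHF2 t/g replicate 1 both left out it was −0.28 and did not pass (edgeR adjusted p = 0.0831). Whether App passed thus turned on which libraries entered the fit.

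The relatives of App differed little between the groups. Aplp1 was at 182, 163 and 181 CPM in the PHF2 t/g libraries and at 183, 168 and 178 CPM in WT, overlapping almost entirely. Its log2 fold change was −0.0043 with a 95% interval of −0.17 to 0.16 (edgeR adjusted p = 0.986), which spans ratios of 0.887 to 1.12. Aplp2 was at 144, 131 and 143 CPM against 136, 137 and 137 CPM in WT. The WT values of Aplp2 were close together, with a coefficient of variation of 0.722%, and lay inside the range of PHF2 t/g. The interval of its log2 fold change (0.03; edgeR adjusted p = 0.906) ran from −0.14 to 0.20, or ratios of 0.909 to 1.15.

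Shares within the family do not depend on how libraries are scaled. App made up 88.5%, 89.9% and 88.2% of the summed App, Aplp1 and Aplp2 counts in PHF2 t/g, and 90.6%, 86.9% and 90.6% in WT. The lowest share was again that of WT replicate 2 (95% exact binomial interval 86.4% to 87.4%, counting error only), and those of the PHF2 t/g libraries fell between it and the other WT libraries. The App to Aplp2 ratio was 18.1 ± 1.67 in PHF2 t/g and 19.9 ± 4.48 in WT, with overlapping libraries. The ratio of Aplp1 to Aplp2 was steadier, at 1.26 ± 0.0132 against 1.29 ± 0.0668.

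Bace1, the beta-secretase, had levels of 44.1, 43.9 and 43.0 CPM in PHF2 t/g against 42.6, 39.9 and 48.1 CPM in WT. The PHF2 t/g libraries lay within the WT range. With a log2 fold change of 0.0043 (SE 0.11; edgeR adjusted p = 0.989) the interval ran from −0.22 to 0.23, so ratios of 0.858 to 1.17 are within it. Bace1 is the least abundant of the 7 tested members, with 224 to 397 counts in a library and a counting error of up to 6.68%.

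Mapt was at 612, 630 and 562 CPM in PHF2 t/g against 614, 672 and 691 CPM in WT. The lowest library was PHF2 t/g replicate 3 and the highest WT replicate 3, and PHF2 t/g replicate 2 lay above WT replicate 1. A log2 fold change of −0.13 (SE 0.079, 95% interval −0.30 to 0.03) did not pass (edgeR adjusted p = 0.456).

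Sncb had levels of 350, 363 and 380 CPM in PHF2 t/g against 435, 511 and 473 CPM in WT. All 3 PHF2 t/g libraries lay below all 3 WT libraries, with a gap of 380 to 435 CPM between the groups. Groups that did not overlap, in either direction, were found in 20.6% of all tested genes. The log2 fold change was −0.38 (SE 0.080, 95% interval −0.54 to −0.21; edgeR adjusted p = 0.0169), and Sncb passed by DESeq2 (adjusted p = 0.00409) and limma-voom (adjusted p = 0.0361) as well. The call ended with library size alone in place of TMM (log2 fold change −0.28; edgeR adjusted p = 0.0777), without PHF2 t/g replicate 1 (edgeR adjusted p = 0.175) or replicate 2 (edgeR adjusted p = 0.111), and with PHF2 t/g replicate 1 and WT replicate 2 removed together (edgeR adjusted p = 0.0895). The log2 fold change was below 0 under all 16 alternatives, from −0.44 to −0.28. The ribosomal RNA row Rn45s held 7.05% to 7.61% of counts in PHF2 t/g against 8.20% to 9.89% in WT. Without the rows Rn45s, Lrrc17 and Akap5 Sncb kept its call (log2 fold change −0.38, edgeR adjusted p = 0.0179). TMM trims the most extreme and most abundant rows, so this removal could hardly change the fit. The part of Rn45s in the Sncb result was not tested. In bulk tissue, fewer cells of a type and less RNA per cell cannot be told apart.

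Ratios within a library carry no scaling. The ratio of Mapt to Sncb was 1.75, 1.73 and 1.48 in PHF2 t/g and 1.41, 1.32 and 1.46 in WT, with no overlap between the groups. The other Sncb ratios overlapped: Prnp to Sncb was 0.906, 0.869 and 0.789 in PHF2 t/g against 0.834, 0.671 and 0.688, and App to Sncb was 7.15, 7.23 and 6.39 against 7.11, 3.97 and 6.43. Per 100 counts of 12 neuron markers in the same library, Sncb had 5.38, 5.64 and 5.67 counts in PHF2 t/g and 6.11, 7.56 and 6.87 in WT, again without overlap. On the same scale App (38.5 ± 2.26 against 39.2 ± 8.0), Mapt (9.19 ± 0.705 against 9.54 ± 0.782) and Prnp (4.75 ± 0.235 against 4.96 ± 0.208) overlapped between the groups. Aplp2 did not overlap and was higher in PHF2 t/g, at 2.13 ± 0.0917 against 1.98 ± 0.0649. In CPM Aplp2 overlapped (131 to 144 against 136 to 137 CPM), while the summed neuron markers were lower in every PHF2 t/g library (6448 to 6689 against 6757 to 7113 CPM). These ratios were not tested, and the share of all genes without overlap was not computed for them.

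Marker levels that moved with the Sncb result are given beside it. Of the 12 neuron markers, Tubb3, a neuronal tubulin, fell to 340 ± 22.3 from 442 ± 9.23 CPM (edgeR adjusted p = 0.0121) and 11 did not pass; their summed level was 6448 to 6689 CPM in PHF2 t/g against 6757 to 7113 CPM in WT. Summed markers of striatum (840 to 959 against 646 to 738 CPM; Penk, Tac1 and Rgs9 rose, 3 of 9 tested), hypothalamus (57.6 to 62.4 against 11.5 to 13.3 CPM; Avp, Oxt, Trh and Irs4 rose, 4 of 6 tested), leptomeninges (426 to 513 against 292 to 382 CPM; Mgp rose, 1 of 8 tested) and vessels (148 to 153 against 113 to 135 CPM; Flt1, Ly6c1 and Vwf rose, 3 of 10 tested) were higher in every PHF2 t/g library than in any WT library. So were choroid plexus markers (159.6 to 566 against 142 to 158 CPM), of which 0 of 4 passed by edgeR and 2 had an unadjusted p under 0.05 (1 passed by DESeq2, 0 by limma-voom). The 566 CPM belong to PHF2 t/g replicate 1, where Ttr was at 292 CPM against 1.29 to 4.46 CPM in the other 5 libraries; replicates 2 and 3 summed to 163 and 159.6 CPM. Thalamus and habenula markers were at 212 to 223 CPM against 227 to 254 CPM in WT, with 0 of 8 past edgeR's test, 2 at an unadjusted p under 0.05, and 0 past DESeq2 or limma-voom. Summed astrocyte, oligodendrocyte, microglia and Cck interneuron markers overlapped between the groups, although the oligodendrocyte genes Mag and Opalin fell (2 of 10). Some markers of the higher lists were lower in PHF2 t/g without passing: Cldn5 of vessels (11.7 against 17.9 CPM), Hdc of hypothalamus (2.97 against 5.99 CPM) and Igfbp2 of leptomeninges (44.2 against 54.0 CPM), each without overlap, and Adora2a of striatum (77.8 against 97.1 CPM), with overlap. The hypothalamus sum in PHF2 t/g was largest in Avp (27.3 against 0.284 CPM in WT) and Oxt (16.0 against 0.129 CPM). In that list Pomc (1.65 against 1.77 CPM) was lower without passing. Of its untested genes, Hcrt, Pmch and Sim1 had lower means in PHF2 t/g with overlap, and Gal, Agrp and Nkx2-1 had higher means. Of the marker calls, Tubb3 and Mag were lost with library size alone, Mag, Ly6c1 and Rgs9 by limma-voom, and Ly6c1 by DESeq2, which gave no adjusted p for Vwf, Trh and Irs4. No marker in these lists was at 0 in all 6 libraries. The part of these tissues and cells in the results for Sncb, and for Cdk5r1 and Stmn4 described later, was not tested.

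Sncg, the second synuclein gene, had 7, 4 and 9 counts in PHF2 t/g and 1, 14 and 9 counts in WT. Its level was 0.777, 0.568 and 1.45 CPM in PHF2 t/g against 0.190, 1.64 and 1.36 CPM in WT, which overlapped. A floor of 3 counts corresponds to 0.333 to 0.571 CPM in these libraries, and the 1 count of WT replicate 1 has an exact Poisson interval of 0.0048 to 1.06 CPM (counting error only). Sncg did not pass the low-count filter. In a fit without that filter its log2 fold change was −0.34, with a 95% interval of −1.42 to 0.74 (edgeR adjusted p = 0.832 over 18294 genes), so a difference was not detectable at this depth. Sncg made up 0.253% ± 0.115 of the summed Sncb and Sncg counts in PHF2 t/g and 0.217% ± 0.151 in WT.

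Prnp was at 317, 316 and 299.6 CPM in PHF2 t/g against 363, 343 and 325 CPM in WT. All 3 PHF2 t/g libraries lay below the WT libraries, the closest being PHF2 t/g replicate 1 and WT replicate 3; such groups without overlap made up 20.6% of tested genes. Prnp did not pass, at a log2 fold change of −0.14 (SE 0.076, 95% interval −0.30 to 0.02; edgeR adjusted p = 0.397).

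**Figure D2:**
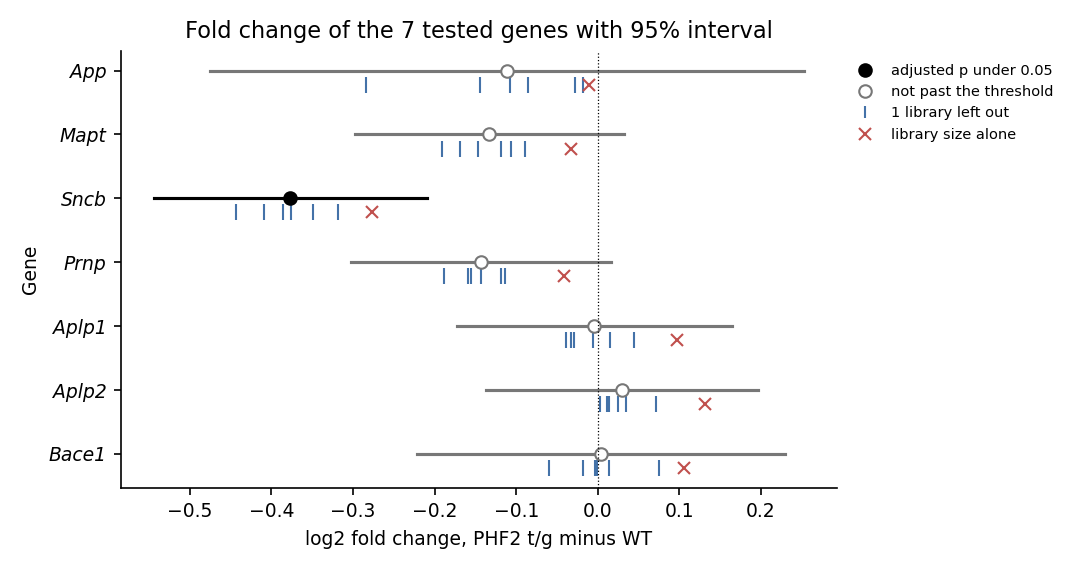
The log2 fold change of PHF2 t/g against WT (horizontal axis) for the 7 tested genes, with the 95% interval of edgeR as a line, values with 1 library left out as blue ticks and the value with library size alone as a red cross. Sncb at −0.38 is the only filled point, and the ticks of App run from −0.28 to −0.02.

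Over the 7 tested members, 1 passed lower and 0 higher by edgeR, with 1 at an unadjusted p under 0.05; among all genes 1.49% passed lower and 0.779% higher. DESeq2 and limma-voom each called Sncb and no other member. The median log2 fold change of the 7 was −0.11, against 0.02 over all genes. With library size alone the medians were −0.01 and 0.12, the members above 0 went from 2 to 3 of 7, and the share of called genes that were higher went from 34.4% to 74.7%; with DESeq2's size factors 1 of 7 lay above 0.

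The members' profiles across libraries were compared in pairs. Over 21 pairs, Pearson's r of log2 CPM across the 6 libraries ran from −0.44 (Aplp2 and Mapt) to 0.72 (App and Bace1), and no pair exceeded 0.9; all points share libraries and their scaling. WT replicate 2 was 0.60 lower than the mean of the other WT libraries in log2 App level, a shift below which 8.72% of tested genes lay. The same library was 0.17 higher in Sncb, and within 0.18 for Aplp1, Aplp2, Bace1, Mapt and Prnp.

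**Figure D3:**
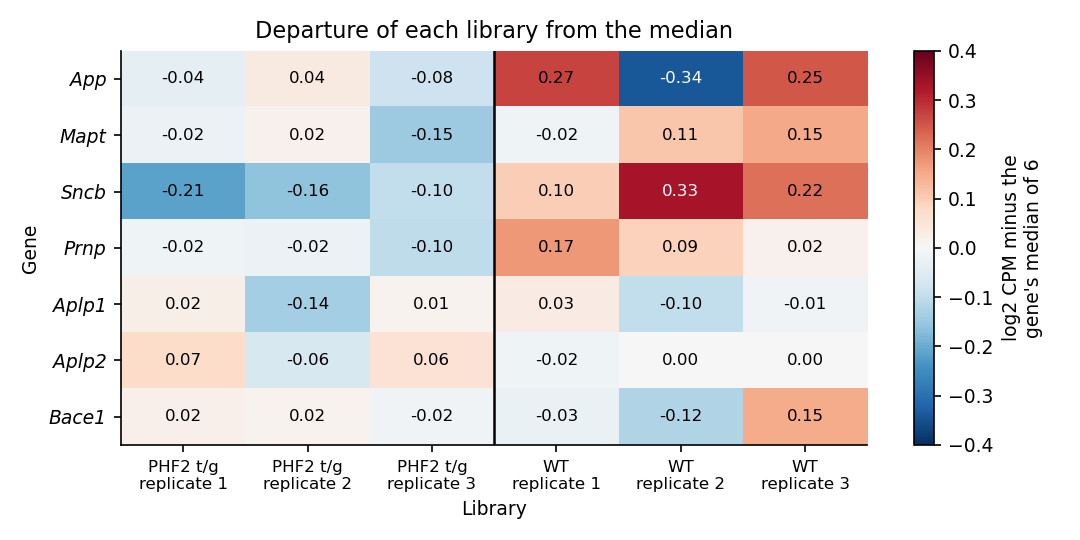
Difference of log2 CPM in each library (columns) from the gene's median of the 6 libraries, for the 7 tested genes (rows), with red above and blue below the median. App is at −0.34 in WT replicate 2 and at 0.27 and 0.25 in the other WT libraries, whereas Sncb is below its median in the 3 PHF2 t/g libraries and above it in the 3 WT libraries.

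Genes with the most similar profile were sought among 7186 others whose mean log2 CPM reached 4. For Sncb these were Csrp1 (r = 0.999 over the 6 libraries), Cdk16 (0.998), a cyclin-dependent kinase, and Zrsr1 (0.997). Csrp1 was at 411 ± 13.4 CPM in PHF2 t/g against 520 ± 33.3 CPM in WT, and Cdk16 at 96.2 ± 7.24 against 137 ± 14.6 CPM; both fell (edgeR adjusted p = 0.0253 and 0.00649), while Zrsr1 did not pass (edgeR adjusted p = 0.0979). These genes were picked for a profile like that of Sncb in the same libraries, so their direction between the groups was largely set by the choice. A profile with r over 0.9 to that of Sncb was held by 364 genes, and to that of App by 128. The closest to App were Ifngr2 (0.995), the interferon gamma receptor subunit, Armcx5 (0.992) and Cpped1 (0.987). Creg2 (0.990), Lix1 (0.988) and Npm1 (0.988) were closest to Mapt, and Telo2 (0.989), Ptdss1 (0.985) and Bcl2l13 (0.981) to Prnp. For Aplp1 they were Cops2 (0.988), Ipo5 (0.967) and Phf20l1 (0.956), for Aplp2 Ttc1 (0.983), Mapk11 (0.972) and Ergic3 (0.970), and for Bace1 Ppm1k (0.989), Leprotl1 (0.983) and Cux1 (0.978). With 6 points and 7186 genes these values are descriptions of the libraries.

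The pathways around the members were read from 7 lists with 103 distinct genes that are not members, of which 100 were tested, 2 fell, 0 rose and 98 did not pass. The share of 2% is near the 2.27% of all genes, and their median log2 fold change was −0.02. Cdk5r1 and Stmn4 were the genes that fell.

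**Figure D4:**
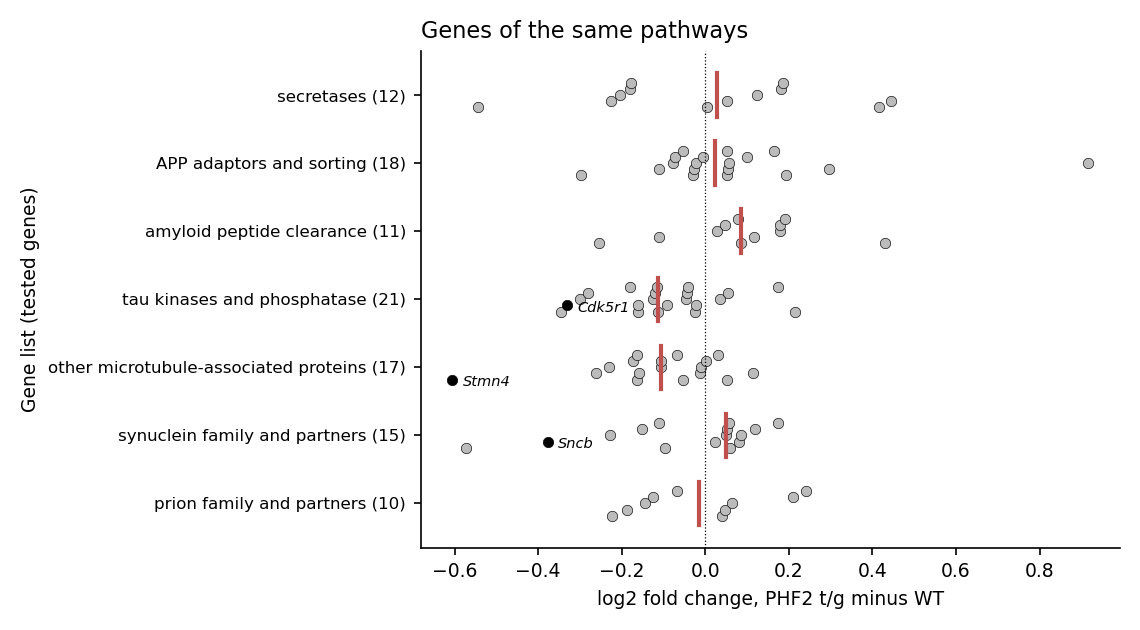
The log2 fold change of PHF2 t/g against WT (horizontal axis) for every tested gene of the 7 pathway lists (rows, with the number tested), black where edgeR's adjusted p is under 0.05 and grey otherwise, with the list's median as a red bar. Only Cdk5r1, Stmn4 and Sncb are black, and the list medians lie between −0.11 and 0.08.

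Among 12 secretase genes, which with BACE1 include the alpha-secretases of the ADAM family and the subunits of gamma-secretase, 0 passed by edgeR, DESeq2 or limma-voom and 1 had an unadjusted p under 0.05. That was Adam10, the main alpha-secretase of neurons, at 30.5 ± 3.45 CPM in PHF2 t/g against 22.7 ± 5.12 CPM in WT (edgeR adjusted p = 0.162, and 0.0399 without the low-count filter). Adam17 was at 57.6 ± 5.94 against 66.3 ± 2.91 CPM. Of 18 genes for adaptors and sorting of APP 0 passed by any of the 3 tools and 2 had an unadjusted p under 0.05. With TMM 9 lay on each side of 0, and with library size alone 16 lay above. Their median minus that of all tested genes was 0.003 under both scalings. Apba1, an adaptor that binds the tail of APP, was at 196 ± 18.1 CPM against 241 ± 17.8 CPM, without overlap (edgeR adjusted p = 0.0828, and 0.0219 without the low-count filter). Apba3 was at 3.76 ± 1.35 against 2.01 ± 0.942 CPM. Of 11 tested genes for clearance of the amyloid peptide 0 passed by any of the 3 tools and 2 had an unadjusted p under 0.05. These were Ece1, an endopeptidase, at 115 ± 12.7 against 137 ± 16.1 CPM, and Clu, the extracellular chaperone clusterin, at 204 ± 16.9 against 181 ± 6.02 CPM.

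On the side of tau, 21 genes for its kinases and phosphatase were tested. Cdk5r1, which encodes the p35 activator of CDK5, fell from 1109, 1204 and 1075 CPM in WT to 855, 889 and 952 CPM in PHF2 t/g, with no overlap (log2 fold change −0.33, SE 0.078; edgeR adjusted p = 0.0312). This call ended with library size alone (edgeR adjusted p = 0.121), in the fit that is not robust (0.0673), without PHF2 t/g replicate 1, 2 or 3 (0.243, 0.166 and 0.0588) and with PHF2 t/g replicate 1 and WT replicate 2 removed together (0.134). The other 20 did not pass, and 17 of the 21 were below 0 with TMM, or 11 when library size alone was used (median −0.11 and −0.01). The median minus that of all tested genes was −0.13 under both scalings.

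Among 17 other microtubule-associated proteins, Stmn4, a stathmin that binds tubulin dimers, fell from 1192, 1302 and 1146 CPM in WT to 762, 778 and 853 CPM in PHF2 t/g. The groups were far apart, and the log2 fold change of −0.61 (SE 0.079; edgeR adjusted p = 3.13e-04) kept its call under all 16 alternatives. The other 16 did not pass. Of the 17, 13 were below 0 with TMM, or 9 when library size alone was used (median −0.11 and −0.0039). Here too the median minus that of all tested genes was −0.13 under both scalings. Of 15 tested synuclein genes and partners Sncb alone passed, and the median was 0.05. Of 10 tested prion genes and partners 0 passed by any of the 3 tools and 2 had an unadjusted p under 0.05. Those were Dpp6, at 92.6 ± 6.10 against 108 ± 10.8 CPM, and Rpsa, a ribosomal protein that also serves as a laminin receptor, at 122 ± 4.73 against 139 ± 7.90 CPM. Rpsa has many processed copies in the genome, so its count is uncertain. Prnd, the relative of Prnp known as doppel, had 0 counts in all 6 libraries.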

How the data were processed

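The values deposited by the authors are raw counts, with 1 file for each library and 1 row for each gene symbol. The submitters' processing notes name Bowtie2, edgeR and mm10, without versions; the counting program, annotation and filters are not stated there. The labels' protocols give Trizol extraction and QuantSeq 3′ libraries.

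Titles gave the groups and replicate numbers. After filterByExpr and TMM scaling, all 12831 genes were tested two-sided in R 4.3.3 by edgeR 4.0.16 (glmQLFTest after a robust glmQLFit, with genotype as the only term). Adjustment was by Benjamini-Hochberg, with a threshold of 0.05. DESeq2 1.42.0 and limma-voom (limma 3.58.1) were alternatives, as were other scalings and filters, a replicate block and each library left out. Profiles used log2 CPM with a prior count of 2. Each library held 5512171 to 8844718 counts. Count intervals and the floor of 3 counts reflect counting error alone.

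The members and lists were chosen with earlier results of these data known. Genes named are the members; in each pathway list up to 4 genes past the threshold, otherwise the 2 with the smallest p; markers that passed; and the 3 genes most like each member among those whose mean log2 CPM reached 4. Phf2, Rn45s, Rnf214, Prn, Prnd, Ttr, Cldn5, Hdc, Igfbp2, Adora2a and the hippocampal markers were added after values were seen.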

Additional observations from a re-analysis of the deposited data

How the results depend on the processing

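Of 7 tested members 1 passed by edgeR, but 0 with library size alone (1 at an unadjusted p under 0.05), 0 with WT replicate 2 and PHF2 t/g replicate 1 removed together (2 at an unadjusted p under 0.05), and 0 to 2 with 1 library left out: 0 without PHF2 t/g replicate 1 or 2 (1 at an unadjusted p under 0.05 in each) and 2 without WT replicate 2. For the pathway genes the 2 calls became 1 with library size alone, without the robust fit or with both libraries removed, 7 without the low-count filter, and 1 to 4 with 1 library left out (1 without any PHF2 t/g library, 4 without WT replicate 1). Over all genes the 291 calls became 162 by limma-voom, 606 without the low-count filter, 149 without the robust fit, 140 with both libraries removed, 547 at an adjusted p threshold of 0.10, and 49 to 392 with 1 library left out (49, 106 and 116 without PHF2 t/g replicate 1, 2 and 3). The causes were not tested. Whether the replicate numbers pair the samples was not settled. Deviations from the group means correlated at −0.00445, 0.123 and 0.0846 for numbers 1, 2 and 3. PHF2 t/g replicates 2 and 3 correlated best with the WT library of the same number, and PHF2 t/g replicate 1 with WT replicate 2 (0.0139). With the replicate number as a block Sncb was at −0.37 (edgeR adjusted p = 0.0117), and the calls were 1 member, 2 pathway genes and 299 genes. Sncb, App, Mapt, Prnp and Aplp2 kept their sign under all 16 alternatives, Aplp1 under 13 and Bace1 under 9. Among the members, depth limited Sncg most, with 44 counts in all.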

Other observations

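Among the 8 hippocampal markers, some genes of dentate granule cells and of CA1 differed between libraries within both groups. C1ql2 was at 1.29 CPM in PHF2 t/g replicate 3 and 1.36 CPM in WT replicate 3, against 5.33 to 9.80 CPM in the other 4 libraries. Fibcd1, a CA1 gene, was at 7.88 and 13.8 CPM in the same libraries and at 16.5 to 40.9 CPM in the others. Dsp was at 0.322 and 0 CPM there, against 2.23 to 4.76 CPM. Prox1 was at 1.77 CPM in PHF2 t/g replicate 3, but its 4.69 CPM in WT replicate 3 lay close to the lowest of the others (4.77 CPM). Wfs1, the marker that passed, was at 48.1 to 54.0 CPM in PHF2 t/g and at 34.7 to 37.4 CPM in WT (edgeR adjusted p = 0.0191). It did not share the drop, at 48.8 CPM in PHF2 t/g replicate 3 and 34.7 CPM in WT replicate 3. In PHF2 t/g replicate 3 and WT replicate 3 Sncb was at 380 and 473 CPM, inside the range of its own group for WT and at its top for PHF2 t/g. The part of these differences in the levels of the members was not tested.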
